A study of Mus musculus with 10 samples.

Results

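The Hox genes of the 4 mammalian clusters, Hoxa, Hoxb, Hoxc and Hoxd, were examined in mouse embryonic fibroblasts with and without Zbtb4. The list held 38 Hox genes, of which 36 had an array probe set carrying their symbol alone, among 22180 genes measured that way. These were 9 of 10 Hoxa genes, 10 of 10 Hoxb genes, 9 of 9 Hoxc genes and 8 of 9 Hoxd genes. Hoxa11 and Hoxd4 share their probe sets with other genes and were not analysed here. Where a gene had several such probe sets, the brightest by its mean over the 10 arrays stood for it.

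Total RNA of 5 samples labelled Zbtb4 knock-out (KO) and 5 labelled wild type (WT) was hybridised to one-colour Affymetrix arrays, to find the transcripts that depend on Zbtb4, whose zinc fingers recognise methylated CpG in DNA. Both genotypes were cultures of fibroblasts taken at E13.5 of gestation. The labels name the skin of the back as the source and also describe minced embryos freed of head and organs, and they do not say whether limbs and tail were kept. They name neither the knock-out allele nor the strain, and do not tie the arrays to separate embryos or cultures, so that a p-value here reflects the spread among these samples, which may be technical.

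Hox genes encode homeodomain transcription factors that give cells of the trunk and limbs their position along the body axis. Within each cluster, genes with low numbers are active further forward and earlier than genes with high numbers, an order called collinearity, and genes with the same number in different clusters are paralogues from duplications of one ancestral cluster. Fibroblasts are known to keep much of the Hox pattern of the site they came from in culture, the low and middle numbers marking neck and chest and the highest numbers marking distal limb, tail and genital region.

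All values below are the deposited log2 values, and differences are KO minus WT on that scale. On each array the median over all genes lay between 4.29 and 4.34 and the upper quartile between 6.26 and 6.38. Probe sets differ in how strongly they bind, so a level was set against these marks and not against the level of another Hox gene. Arrays correlated with r from 0.989 to 0.994 across genes. The number of arrays limits the precision, with a median standard error of 0.12 for the difference of a Hox gene and 0.10 over all genes. Of 14 fibroblast markers 13 were measured, and 13 lay above the median on every array, 11 of them above the upper quartile, with Col1a2 between 11.50 and 11.72 and Vim between 12.01 and 12.20. Of 9 macrophage markers 4 lay above the median on every array (Lyz2, Tyrobp, Fcer1g and Cd68) and 3 below it, among them Ptprc, the pan-leukocyte surface protein. Of 9 keratinocyte and epithelial markers, Krt8 and Krt18 lay above it on every array, Krt18 also above the upper quartile, and the other 7, Epcam included, lay below it. In such bulk RNA, fewer cells of a kind and less RNA per cell cannot be told apart.

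Zbtb4 itself was checked first. It read 5.44, 5.76, 5.04, 5.62 and 5.39 on the 5 KO arrays and 6.06, 6.03, 5.94, 6.23 and 6.11 on the 5 WT arrays. Every KO value lay below every WT value. The difference was -0.62 (SE 0.12), with an exact two-sided permutation p of 0.00794, the smallest that splits of 10 arrays into 5 and 5 can give, while limma's p adjusted over all genes was 0.628. Whether the probe set lies in the deleted part of the gene was not tested.

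Hox genes above the array median were found in all 4 clusters, most often among numbers 5 to 8. That median is a mark and not a limit of detection. Of the 36 Hox genes, 24 lay above the median of all genes on every array, against 10085 of 22180 genes overall. They included 7 of 10 measured genes with paralogue numbers 1 to 4, 10 of 11 with numbers 5 to 8 and 7 of 15 with numbers 9 to 13. By cluster they were 7 of 9 Hoxa, 7 of 10 Hoxb, 6 of 9 Hoxc and 4 of 8 Hoxd genes. Hoxb6, Hoxb9, Hoxc6 and Hoxc8, genes known for the thoracic region and the forelimb level, lay above the upper quartile on every array. Another 9 genes lay below the median on every array, and Hoxa10, Hoxa13 and Hoxb7 fell on both sides of it.

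**Figure D1:**
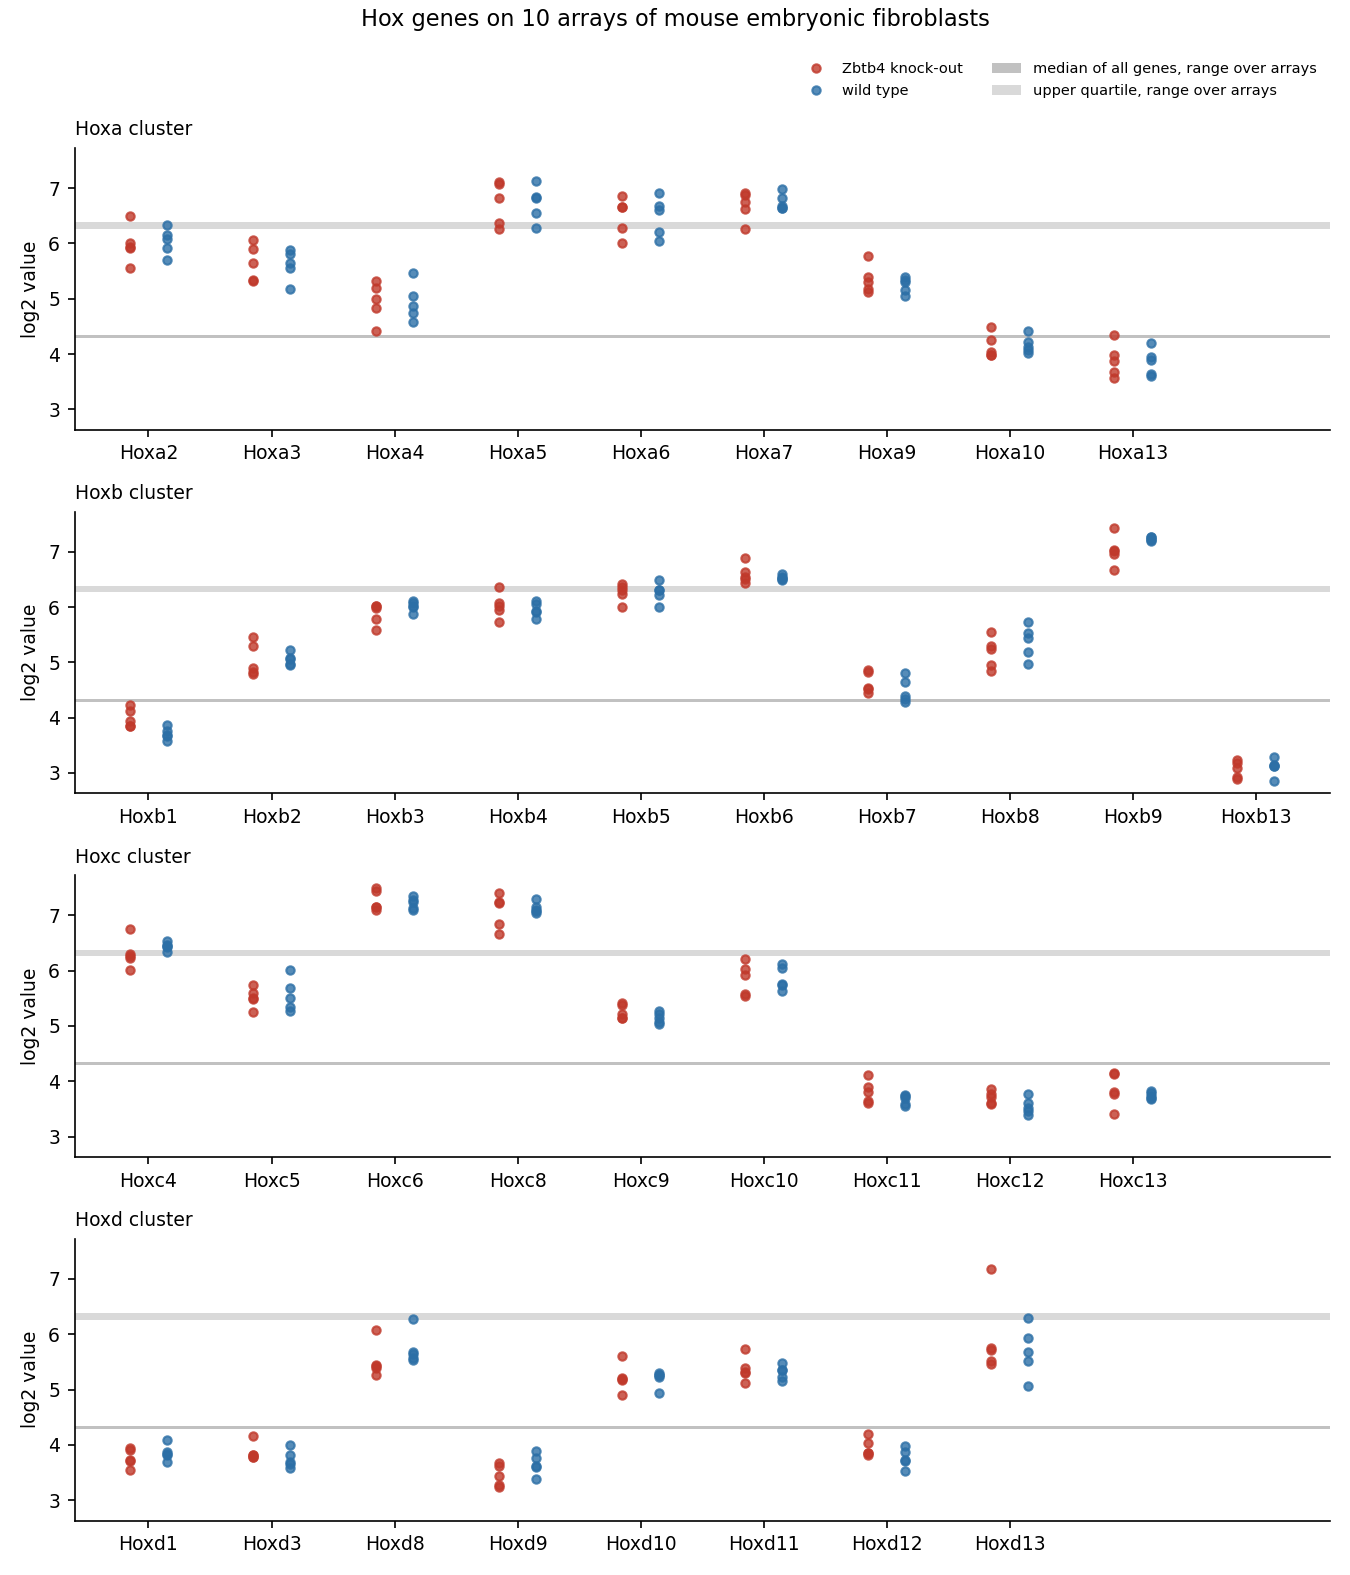
Log2 value of each of 36 measured Hox genes (vertical axis) on 5 KO arrays (red, left) and 5 WT arrays (blue, right), by cluster and in order of paralogue number; grey bands give the range over arrays of the median (4.29 to 4.34) and upper quartile (6.26 to 6.38) of all genes. Most genes numbered 2 to 9 sit above the lower band, the groups overlap for every gene, and Hoxd13 on KO array 4 stands alone at 7.18.

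In the Hoxa cluster, on chromosome 6, every measured gene from Hoxa2 to Hoxa9 lay above the median throughout. Hoxa2, which patterns the second pharyngeal arch and hindbrain, read from 5.56 to 6.5 in KO and from 5.69 to 6.33 in WT. Hoxa3, needed for thymus and parathyroid, read from 5.32 to 6.06 in KO and from 5.17 to 5.88 in WT. Hoxa4, a gene of the cervical vertebrae, read from 4.42 to 5.32 in KO and from 4.58 to 5.47 in WT. These genes spanned nearly the same range in both genotypes. Hoxa5, which patterns the neck-to-chest boundary and the lung, read from 6.26 to 7.11 in KO and from 6.28 to 7.12 in WT. Hoxa6 and Hoxa7, both genes of the thoracic vertebrae, read from 6.0 to 6.91 and from 6.27 to 6.98 over all 10 arrays. Hoxa9, also a regulator of blood progenitors, read from 5.13 to 5.78 in KO and from 5.05 to 5.39 in WT. Hoxa10, of the lumbar spine and uterus, stayed around the median at 3.97 to 4.5 in KO and 4.02 to 4.42 in WT. Hoxa13, a gene of digits and genital tract, crossed the array median on KO array 4 alone, at 4.34, and read from 3.59 to 4.20 in WT.

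In the Hoxb cluster, on chromosome 11 as is Zbtb4, Hoxb2 to Hoxb6, Hoxb8 and Hoxb9 lay above the median throughout. Hoxb2 and Hoxb3, which act in the hindbrain, read from 4.80 to 5.46 and from 5.58 to 6.01 in KO, against 4.95 to 5.23 and 5.88 to 6.10 in WT. Hoxb4, a gene of the neck vertebrae and of blood stem cells, read from 5.74 to 6.36 in KO and from 5.79 to 6.10 in WT. Hoxb5, which helps to place the shoulder girdle, read from 5.99 to 6.41 in KO and from 6.0 to 6.48 in WT. The genotypes overlapped in each of these genes. A second probe set of Hoxb5 read from 5.61 to 6.09 in KO and from 5.90 to 6.26 in WT, with a difference of -0.18 against -0.00076 for the one used. Hoxb6 read from 6.44 to 6.88 in KO and from 6.48 to 6.59 in WT. Hoxb7 read from 4.44 to 4.85 in KO and from 4.28 to 4.80 in WT, and Hoxb8, whose loss in mice causes excessive grooming, from 4.84 to 5.55 in KO and from 4.97 to 5.72 in WT. At the ends of the cluster Hoxb1, which sets the identity of a hindbrain segment, and Hoxb13, of tail and prostate, lay below the median on every array, Hoxb13 between 2.90 and 3.23 in KO and between 2.86 and 3.28 in WT.

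In the Hoxc cluster, on chromosome 15, every measured gene from Hoxc4 to Hoxc10 lay above the median throughout. Hoxc4 read from 6.02 to 6.76 in KO and from 6.34 to 6.54 in WT, and Hoxc5 from 5.24 to 5.74 in KO and from 5.27 to 6.0 in WT. Hoxc6 read from 7.09 to 7.49 in KO and from 7.10 to 7.35 in WT. Hoxc8, which acts in thoracic vertebrae and in motor neurons of the forelimb, read from 6.66 to 7.41 in KO and from 7.04 to 7.30 in WT. Each of these stood well above the array medians. Hoxc9, which marks thoracic motor neurons, read from 5.14 to 5.42 in KO and from 5.03 to 5.27 in WT. Hoxc10, a gene of the lumbar level and hindlimb, read from 5.54 to 6.21 in KO and from 5.63 to 6.12 in WT. Hoxc11 and Hoxc12 together with Hoxc13, a regulator of hair and nail keratins, lay below the median on every array, the highest being 4.15 for Hoxc13 on KO array 5.

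In the Hoxd cluster, on chromosome 2, genes above and below the median were interspersed. Hoxd8, Hoxd10, Hoxd11 and Hoxd13 lay above the median on every array, while Hoxd1, Hoxd3, Hoxd9 and Hoxd12 lay below it on every array. Hoxd10 and Hoxd11, which shape the lower spine and the forearm, read from 4.91 to 5.60 and from 5.12 to 5.73 in KO, against 4.93 to 5.29 and 5.15 to 5.48 in WT. Hoxd1, known in mice for the wiring of pain-sensing neurons, read from 3.54 to 3.95 in KO and from 3.69 to 4.09 in WT. Hoxd3, of the first neck vertebra, read from 3.77 to 4.15 in KO and from 3.59 to 4.0 in WT. Hoxd13, a gene of the digits, is described with its values below.

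Limb and tail regulators were measured beside these, since the labels name back skin. Tbx5, which marks the forelimb, and Tbx4 and Pitx1, which mark the hindlimb, each lay above the median on every array, Tbx4 from 4.5 to 4.86 in KO and from 4.41 to 4.80 in WT, and Pitx1 from 4.78 to 4.98 in KO and from 4.57 to 5.08 in WT. Of 20 limb and tail genes listed, 18 were measured, with 11 above the median and 5 below it on every array. Hotair, a long RNA transcribed from within the Hoxc cluster and known from human distal and posterior fibroblasts, lay below the median on every array, from 2.72 to 3.09 in KO and from 2.58 to 3.0 in WT.

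No Hox gene passed the test for a difference between the genotypes. By limma with Benjamini-Hochberg adjustment over all genes, 0 of 36 Hox genes had an adjusted p under 0.05, as did 0% of 22180 genes, and the adjusted p of the Hox genes ran from 0.821 to 0.999. Without adjustment 1 Hox gene, Hoxb1, had a p under 0.05, against 5.98% of all genes. Hoxb1 was higher in KO, a direction that 3.25% of all genes shared at that threshold, and 0 Hox genes were lower against 2.73% of all genes. A higher mean in KO was found for 20 of 36 Hox genes (55.6%), against 50.7% of all genes. The median difference was 0.0068 for Hox genes and 0.0020 for all genes, and single differences ran from -0.22 to 0.29. No Hox gene had groups that did not overlap, against 0.987% of all genes, and 4 Hox genes differed by at least 0.2, against 11% of all genes.

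Median differences were small in every cluster and at every position. The median difference was 0.0056 over 9 Hoxa genes, -0.0016 over 10 Hoxb genes, 0.049 over 9 Hoxc genes and 0.040 over 8 Hoxd genes. By paralogue number it was 0.0027 for numbers 1 to 4, -0.00076 for 5 to 8 and 0.055 for 9 to 13. Leaving out 1 array turned most of these signs: numbers 9 to 13 stood at -0.020 and Hoxd at -0.080 without KO array 4, and the Hoxa median ran from -0.083 without WT array 4 to 0.12 without KO array 3, while the Hoxc median stayed above 0. In the group 9 to 13, 10 of 15 genes (66.7%) had the higher mean in KO, against 50.7% of all genes. Among them Hoxc11, Hoxc12, Hoxc13 and Hoxd12 lay below the array median on every array. Hoxa9, Hoxc9, Hoxd10, Hoxd11 and Hoxd13 lay above it on every array, and Hoxa13 fell on both sides. A p that misses the threshold does not show that values are alike: the 95% intervals reached from -0.39 to 0.40 for Hoxa6, for example, and from -0.43 to 0.88 for Hoxd13.

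**Figure D2:**
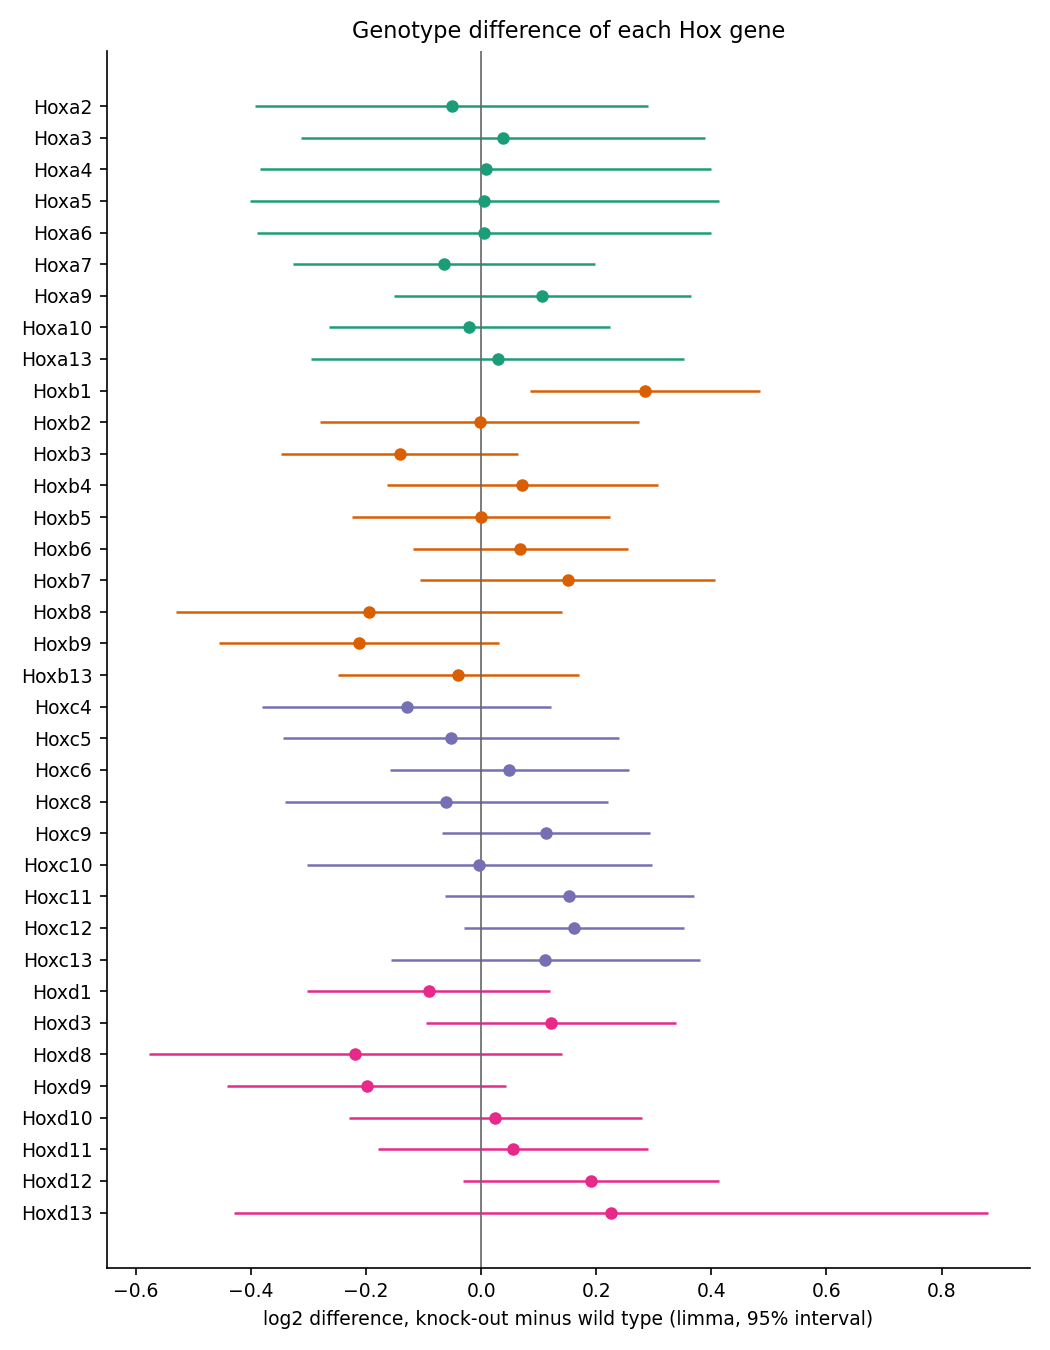
Difference of each Hox gene, KO minus WT, in log2 units (horizontal axis), with the 95% interval from limma as a line; colours mark the 4 clusters. Differences lie between -0.22 and 0.29, and the interval of every gene except Hoxb1 includes 0.

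Hoxb1, the gene with the smallest p, read 3.94, 3.85, 4.22, 3.86 and 4.12 on the KO arrays and 3.77, 3.86, 3.57, 3.69 and 3.67 on the WT arrays. KO arrays 2 and 4 lay just below the highest WT array, so the groups overlapped by a narrow margin. The difference was 0.29 (SE 0.093), with an exact permutation p of 0.0238, limma p of 0.00871 and adjusted p of 0.821. Hoxb9 read 6.95, 7.03, 7.43, 7.01 and 6.68 on the KO arrays and 7.26, 7.21, 7.26, 7.23 and 7.19 on the WT arrays. The WT arrays lay close together, and 4 KO arrays lay below all of them and KO array 3 above all of them. The difference was -0.21 (SE 0.11), with an exact permutation p of 0.103 and an adjusted limma p of 0.84, and it was -0.31 without KO array 3, with an adjusted p of 0.815, and -0.13 without KO array 5.

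The other genes with the smallest p were mostly dim. Hoxd12, of the digits, read 3.85, 4.19, 3.83, 4.04 and 3.85 in KO and 3.53, 3.86, 3.72, 3.99 and 3.70 in WT. Hoxc12 read 3.60, 3.87, 3.60, 3.71 and 3.77 in KO and 3.47, 3.60, 3.40, 3.77 and 3.51 in WT. Hoxc11, a hindlimb gene, read 3.91, 3.60, 4.12, 3.64 and 3.81 in KO and 3.56, 3.73, 3.76, 3.69 and 3.58 in WT. In these 3 genes the groups overlapped and the KO mean was the higher one, by 0.19 for Hoxd12, 0.16 for Hoxc12 and 0.15 for Hoxc11, the last being 0.078 without KO array 3. Hoxd9, a gene of limb and lumbar spine, read 3.25, 3.43, 3.67, 3.62 and 3.28 in KO and 3.76, 3.89, 3.59, 3.39 and 3.61 in WT. Hoxb3 read 6.01, 5.58, 6.01, 5.77 and 5.98 in KO and 6.08, 6.01, 5.88, 6.10 and 5.99 in WT. Hoxc9 read 5.14, 5.42, 5.37, 5.22 and 5.14 in KO and 5.27, 5.15, 5.07, 5.21 and 5.03 in WT. The groups overlapped in each, with differences of -0.20 for Hoxd9, -0.14 for Hoxb3 and 0.11 for Hoxc9, and the Hoxb3 difference was -0.068 without KO array 2. The exact permutation p of these 6 genes lay between 0.0794 for Hoxc12 and 0.19 for Hoxb3, and their adjusted limma p between 0.841 and 0.857.

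Within a genotype, many Hox genes varied from array to array. The within-genotype SD was among the highest 10% of all genes for 9 of 36 Hox genes (25%), and 6 of these 9 were Hoxa genes. Among genes above the median on every array, 8 of 24 Hox genes (33.3%) stood in that top share, against 7.53% of the 10085 genes of this kind. The median SD of the Hoxa cluster lay at the 92.3 percentile of all genes, that of the Hoxb, Hoxc and Hoxd clusters at the 57.8, 69.4 and 63.1 percentiles. Compared with the 25% of all 36 Hox genes, larger shares were found in some other lists. The highest 10% held 33.3% of 18 limb and tail genes and 35.3% of 17 skin and axis transcription factors. It also held 44.4% of 9 chondrocyte markers and 88.9% of 9 macrophage markers. The share of the 9 Hoxa genes taken alone was 66.7%.

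Hoxa5 read 7.11, 7.08, 6.26, 6.37 and 6.82 on the KO arrays and 7.12, 6.82, 6.84, 6.28 and 6.56 on the WT arrays. Hoxa6 read 6.86, 6.65, 6.0, 6.29 and 6.66 on the KO arrays and 6.91, 6.68, 6.60, 6.04 and 6.21 on the WT arrays. KO arrays 3 and 4 and WT array 4 were low for both genes, and the first array of each genotype was high. The differences were 0.0056 (SE 0.19) for Hoxa5 and 0.0046 (SE 0.18) for Hoxa6, each with an adjusted limma p of 0.998. Hoxa4 read 5.20, 5.32, 4.42, 4.82 and 4.99 in KO and 4.87, 5.47, 4.75, 4.58 and 5.05 in WT. Hoxa3 read 6.06, 5.90, 5.32, 5.33 and 5.64 in KO and 5.88, 5.55, 5.81, 5.17 and 5.65 in WT. The same KO array 3 was the lowest KO array and WT array 4 the lowest WT array in both.

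These 2 promoters, of the Hox pair with the highest r across arrays, and that of the most variable Hox gene are shown as RefSeq sequence of build GRCm38.p6, from 250 bases before the start to 50 after it, 5′ to 3′, with CpG, the dinucleotide that Zbtb4 binds when methylated, in capitals.
Hoxa5 promoter, chr6:52204538-52204837, - strand: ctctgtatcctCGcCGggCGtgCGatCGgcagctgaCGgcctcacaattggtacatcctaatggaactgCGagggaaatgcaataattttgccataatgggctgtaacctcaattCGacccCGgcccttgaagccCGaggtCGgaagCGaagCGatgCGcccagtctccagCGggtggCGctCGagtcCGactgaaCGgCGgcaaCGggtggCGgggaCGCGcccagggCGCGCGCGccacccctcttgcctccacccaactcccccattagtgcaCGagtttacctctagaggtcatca
Hoxa6 promoter, chr6:52208623-52208922, - strand: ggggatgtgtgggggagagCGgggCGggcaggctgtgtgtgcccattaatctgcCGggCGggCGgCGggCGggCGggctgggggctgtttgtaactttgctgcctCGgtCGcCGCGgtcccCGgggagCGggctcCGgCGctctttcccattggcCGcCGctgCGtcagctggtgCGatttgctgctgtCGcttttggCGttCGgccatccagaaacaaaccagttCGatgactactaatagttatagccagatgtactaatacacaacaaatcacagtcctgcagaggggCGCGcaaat
Hoxd13 promoter, chr2:74667975-74668274, + strand: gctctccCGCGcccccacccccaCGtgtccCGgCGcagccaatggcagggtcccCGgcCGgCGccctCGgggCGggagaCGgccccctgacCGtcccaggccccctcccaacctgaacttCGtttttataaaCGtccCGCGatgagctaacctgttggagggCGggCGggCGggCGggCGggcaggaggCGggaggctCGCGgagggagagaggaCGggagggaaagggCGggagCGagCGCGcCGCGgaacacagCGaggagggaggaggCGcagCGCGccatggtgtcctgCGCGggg
Hoxa5 held 29 CpG in this window, Hoxa6 26 and Hoxd13 37. Of the 38 listed genes 22 had such windows, 24 in all, with a median of 14.5 CpG and a range from 4, in Hoxa9, Hoxd4 and one Hoxd11 start, to 45 in Hoxa13, against a median of 7 over 32851 promoter windows. At least 20 CpG stood in 11 of the 24 (45.8%), against 26.5% of all windows. Methylation of these sites was not measured here.

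Letters known for Hox proteins and their partners were searched on both strands of the same windows. TGATTNAT, the kind of site that Hox and Pbx proteins bind together, stood in 2 of 24 windows (8.3%), those of Hoxa2 and of one Hoxd11 start, against 3.2% of all windows. TGACAG, bound by Meis and Pknox proteins, stood in those of Hoxa2 and Hoxa3 (8.3%, against 19.2%). TTTATNG, bound by Cdx and posterior Hox proteins, stood in those of Hoxb8 and Hoxd4 (8.3%, against 10.9%). A match describes the letters and not a bound site.

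The low-numbered Hoxa genes varied as a block. After the mean of each genotype was taken out, the 15 pairs among Hoxa2 to Hoxa7 correlated over 10 arrays with a median Pearson r of 0.81, from 0.56 to 0.96, the highest between Hoxa5 and Hoxa6. These correlations are descriptions over arrays that share one table and its normalization. The Hoxa3 promoter window, chr6:52213018-52213317, lies upstream of those of Hoxa5 and Hoxa6 on the same strand. Whether overlapping transcripts share signal among these genes was not tested. The mean of the 6 genes was 6.44, 6.31, 5.64, 5.89 and 6.13 on the KO arrays and 6.32, 6.27, 6.10, 5.73 and 6.03 on the WT arrays. All 6 genes lay above their genotype mean on KO arrays 1 and 2, and all 6 lay below it on KO arrays 3 and 4 and on WT array 4. Leaving out single arrays moved the median r between 0.74, without KO array 3, and 0.85, without WT array 3. Hoxa9 did not join the block, with r from -0.087 for Hoxa2 to 0.47 for Hoxa7.

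Hoxb2, a paralogue of Hoxa2, ran opposite to the block. It read 4.82, 4.80, 5.46, 5.30 and 4.90 on the KO arrays and 4.95, 4.97, 5.06, 5.23 and 5.09 on the WT arrays. It was highest on KO arrays 3 and 4 and on WT array 4, the arrays on which the Hoxa block was low. Its r to the 6 genes had a median of -0.85, from -0.92 for Hoxa5 to -0.77 for Hoxa2, and stayed between -0.88 and -0.79 when single arrays were left out. Likeness to the block was not limited to Hoxa. Hoxc6 had r from 0.43 for Hoxa4 to 0.84 for Hoxa3, and Hoxc8 from 0.51 for Hoxa2 to 0.79 for Hoxa5. In contrast, Hoxc10 had r from -0.45 for Hoxa2 to -0.16 for Hoxa4, and Hoxd10 from -0.71 for Hoxa5 to -0.24 for Hoxa4. These 4 genes were chosen after their values were seen.

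**Figure D3:**
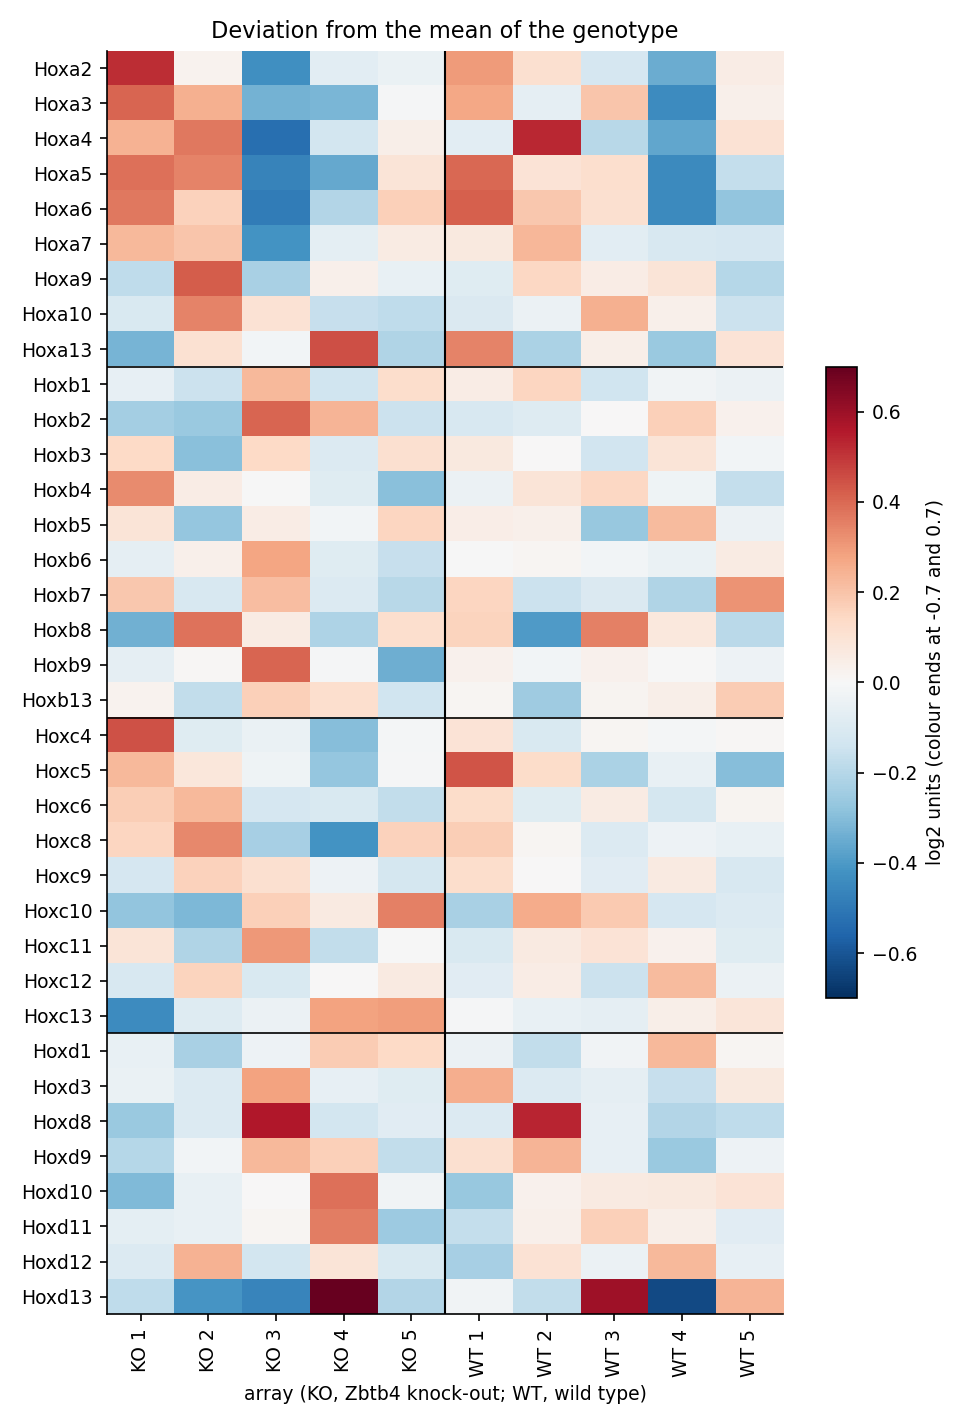
Deviation of each Hox gene from the mean of its genotype (colour, log2 units, red above and blue below) on each array, KO arrays left and WT arrays right of the vertical line; horizontal lines part the clusters. Hoxa2 to Hoxa7 are below their mean on KO arrays 3 and 4 and WT array 4, where Hoxb2 is above its mean, and Hoxd10, Hoxd11 and Hoxd13 are above it on KO array 4.

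Likeness between Hox genes differed from cluster to cluster. Among the 24 Hox genes above the median, 63 pairs within a cluster had a median r of 0.31, 18 pairs with the same number in different clusters 0.19, and 195 other pairs -0.11. The median was 0.69 within Hoxa, 0.044 within Hoxb, 0.22 within Hoxc and 0.34 within Hoxd. For 20 pairs next to each other among these 24 genes, some with a gene left out between them, it was 0.45. By cluster the median of such pairs was 0.74 in Hoxa, 0.0044 in Hoxb, 0.43 in Hoxc and 0.67 in Hoxd. Within Hoxb the closest pairs were Hoxb6 with Hoxb9, at r of 0.91, and Hoxb3 with Hoxb5, at 0.87. Among paralogues the values ran from -0.77 for Hoxa2 with Hoxb2 to 0.65 for Hoxa5 with Hoxc5. Over all 36 genes the deviations largely offset each other, with a mean between 5.23 and 5.29 on KO arrays and between 5.17 and 5.30 on WT arrays.

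**Figure D4:**
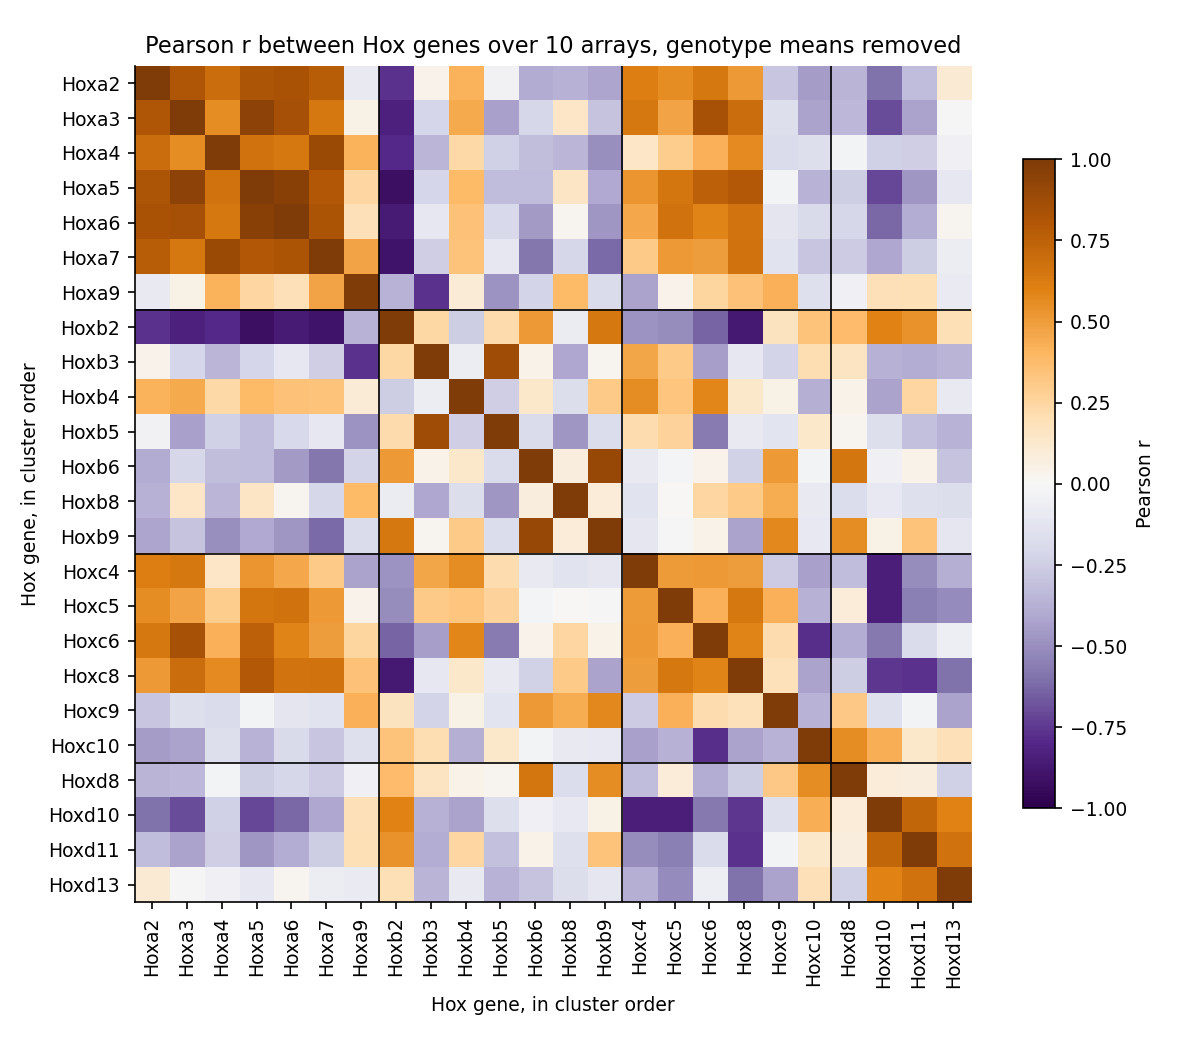
Pearson r between each pair of the 24 Hox genes above the median of all genes on every array, over 10 arrays with genotype means removed (orange positive, purple negative), in cluster order on both axes. Hoxa2 to Hoxa7 form a block with r from 0.56 to 0.96, and Hoxb2 has r from -0.92 to -0.77 to the same genes.

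Of 22144 other genes, 206 (0.93%) had r over 0.8 to the mean deviation of the Hoxa block and 118 (0.533%) had r under -0.8. The closest were Sim2, a basic helix-loop-helix factor, at 0.98, Myh10, a non-muscle myosin, at 0.97, Alx1, a homeobox gene of mesenchyme, at 0.96, Cxcl12, a chemokine made by stromal cells, at 0.96, Sgsm2 and Rcbtb2 at 0.95 each, DQ267102 at 0.95 and Grb10, an imprinted growth factor adaptor, at 0.95. The Hox partner Meis2 stood at rank 18 with r of 0.92 and Meis1 at rank 166 with 0.82. Tbx3 and the partner Pbx3, chosen after their values were seen, had r of 0.80 and 0.77. Meis2 read 7.98, 7.87, 7.24, 7.46 and 7.70 on the KO arrays and 8.07, 7.97, 7.66, 7.44 and 7.37 on the WT arrays. Its lowest KO arrays were those on which the block was low. Among WT arrays Meis2 was lowest on array 5 and next on array 4, and the block was lowest on array 4.

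Markers of other cells also stood apart on KO array 3. The mean of 9 macrophage markers was 4.94, 4.56, 5.62, 4.91 and 4.14 on the KO arrays and 4.67, 4.82, 4.48, 4.84 and 4.52 on the WT arrays, highest on KO array 3. There Lyz2, a myeloid lysozyme, read 8.41, against 5.62 to 7.68 on the other KO arrays and 6.34 to 7.44 on WT arrays, while Ptprc stayed below the array median at 3.36. Pdgfra, a growth factor receptor of fibroblasts, read 7.74, 7.29, 6.37, 6.45 and 7.55 on the KO arrays and 8.12, 7.69, 7.62, 7.28 and 6.44 on the WT arrays. It was thus about as low on KO array 4 and WT array 5 as on KO array 3. Of the 13 fibroblast markers, 6 had their lowest KO value on KO array 3 and 3 their highest, Pdgfrb and Twist1 among them. Meox1, a gene of the somites chosen after its values were seen, read 7.60 on KO array 3 and from 5.68 to 6.27 on the other KO arrays. The part of these cells in the Hoxa block was not tested. The mean of 3 Y-linked genes was between 5.89 and 6.42 on arrays 1 and 3 of each genotype and between 2.49 and 2.78 on the others, and its part in the Hoxa block was not tested.

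Hoxb6, Hoxb9 and Hoxd8 were also set apart by KO array 3. Hoxd8, expressed from trunk to limb, read 5.26, 5.43, 6.08, 5.39 and 5.44 on the KO arrays and 5.64, 6.27, 5.69, 5.54 and 5.57 on the WT arrays. One array of each genotype, KO 3 and WT 2, stood above the others, and the groups overlapped. The difference was -0.22 (SE 0.17), with an adjusted limma p of 0.858, and it was -0.36 without KO array 3, with an adjusted p of 0.815, and -0.086 without WT array 2.

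Hoxd13 was the most variable Hox gene. It read 5.75, 5.51, 5.47, 7.18 and 5.72 on the KO arrays and 5.67, 5.53, 6.30, 5.07 and 5.94 on the WT arrays. KO array 4 stood above every other array, and the WT arrays spread on both sides of the other KO arrays. Its within-genotype SD of 0.60 lay at the 99.7 percentile of all genes, and highest and lowest arrays were 4.33-fold apart. The difference was 0.23 (SE 0.30), with an adjusted limma p of 0.925, and it was -0.089 without KO array 4.

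Some other distal genes were high on the same array and others were not. Of the 15 measured Hox genes numbered 9 to 13, 4 were highest of all 10 arrays on KO array 4 and 5 on KO array 2. Hoxd11 read 5.30, 5.32, 5.38, 5.73 and 5.12 on the KO arrays and 5.15, 5.35, 5.48, 5.35 and 5.23 on the WT arrays. Hoxd10 read 4.91, 5.17, 5.22, 5.60 and 5.19 on the KO arrays and 4.93, 5.22, 5.26, 5.26 and 5.29 on the WT arrays. Both were highest on KO array 4 among all 10 arrays, as was Hoxa13 at 4.34. Hoxa10 read 3.99 and Hoxc11 3.64 there, both in the lower part of their KO range, and Hoxc10, Hoxc13 and Hoxd12 were highest on other KO arrays. For Hoxc13 that was a narrow margin, 4.15 on KO array 5 against 4.13 on KO array 4. The 3 pairs among Hoxd10, Hoxd11 and Hoxd13 had a median r of 0.67, which was 0.069 without KO array 4. Tbx5 read 4.72, 4.76, 4.85, 6.0 and 4.80 on the KO arrays and 5.17, 5.55, 5.36, 5.12 and 4.71 on the WT arrays. KO array 4 was again above all others, and the difference over all arrays was -0.16 (SE 0.23), with an adjusted limma p of 0.932 and values of -0.40 without KO array 4 and -0.063 without WT array 2. Msx2, a limb bud homeobox gene chosen after its values were seen, read 4.83 there and from 3.28 to 4.62 on the other KO arrays. Of the 18 measured limb and tail genes, 4 had their highest KO value on KO array 4 and 3 their lowest, among them Tbx2 at 5.20 and Isl1 at 3.76. The mean of that list was 4.78, 5.03, 4.74, 4.96 and 5.0 on the KO arrays, higher on KO arrays 2 and 5 than on KO array 4. Whether limb cells took part in this was not tested.

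**Figure D5:**
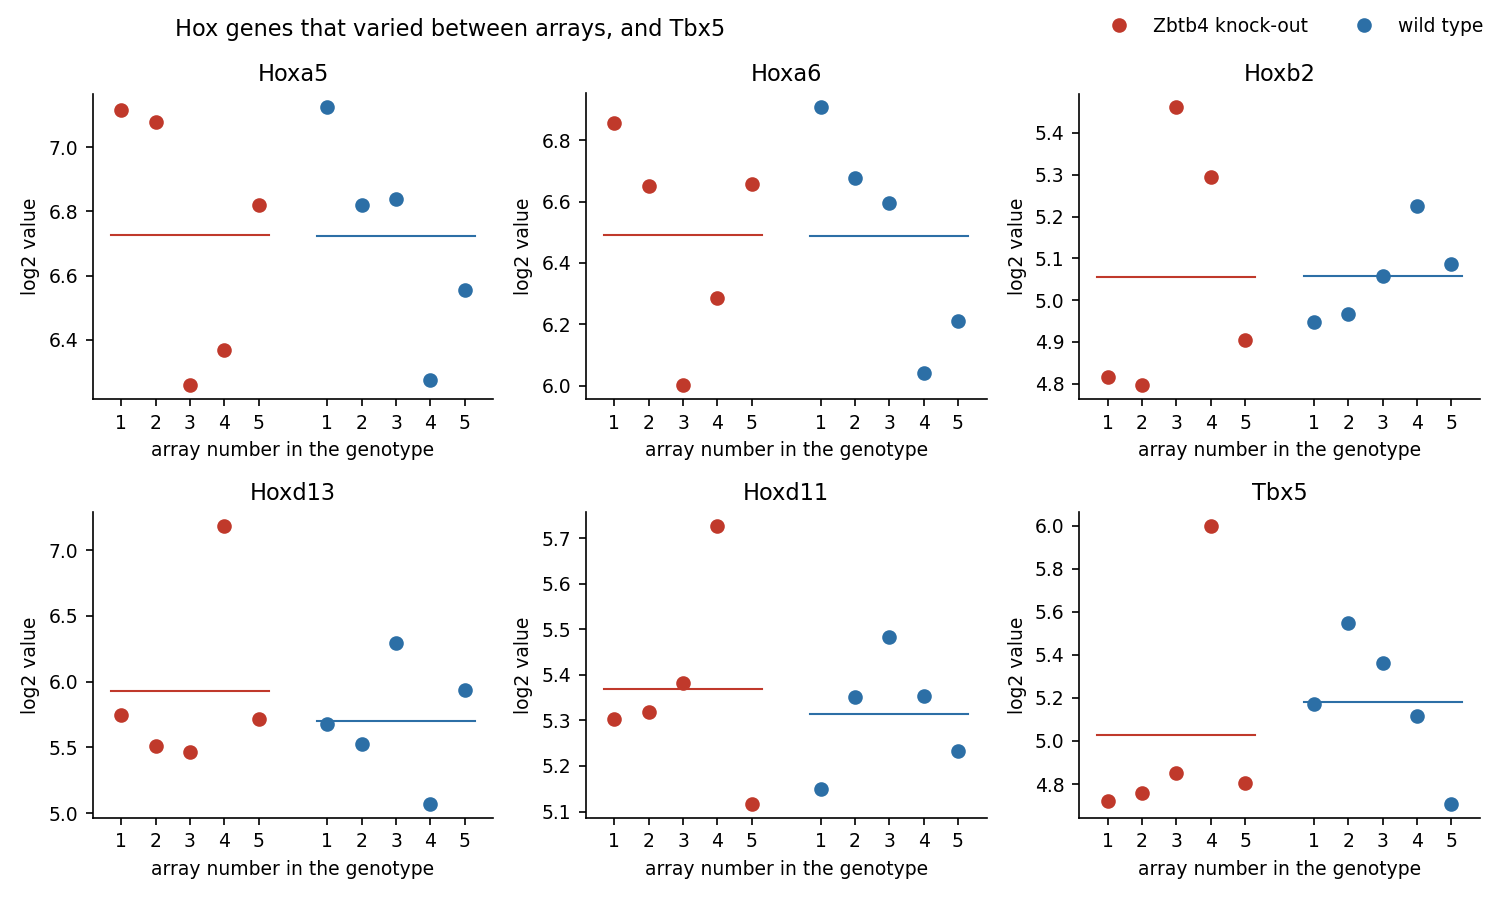
Log2 values (vertical axes, each with its own range that does not start at 0) of Hoxa5, Hoxa6, Hoxb2, Hoxd13, Hoxd11 and Tbx5 on each array (horizontal axis, array number within the genotype), KO in red on the left and WT in blue on the right, with the mean of each genotype as a line. KO array 4 is highest for Hoxd13 (7.18), Hoxd11 (5.73) and Tbx5 (6.0), while Hoxa5 and Hoxa6 are low and Hoxb2 is high on KO arrays 3 and 4.

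The genes most like the mean deviation of Hoxc10, Hoxd10, Hoxd11 and Hoxd13, the 4 measured genes numbered 10 to 13 above the median, were Depdc1b at r of 0.97, Stfa2l1 at 0.96, 4930412C18Rik, Mir211 and 1700120C14Rik at 0.93 each, and Vmn2r108, Mab21l2 and Arrdc1 at 0.91 each, over 22144 genes and 10 arrays. Of these, Stfa2l1, 4930412C18Rik, Mir211 and Vmn2r108 lay below the array median throughout. Tbx5 stood at rank 156 with r of 0.79, and 135 genes (0.61%) had r over 0.8. The mean deviation of the 4 Hox genes was 0.52 on KO array 4 and between -0.21 and 0.25 on the other arrays. KO array 4 thus weighed most in these r values, and r without that array was not computed.

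MicroRNA genes lie inside the Hox clusters and target Hox transcripts among others. Their mature forms from RefSeq, build GRCm38.p6, are shown because those of different clusters share a seed, bases 2 to 8, which is in capitals.
mmu-miR-10a-5p: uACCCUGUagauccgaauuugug
mmu-miR-10b-5p: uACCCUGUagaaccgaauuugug
mmu-miR-196a-5p: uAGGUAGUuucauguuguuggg
mmu-miR-196b-5p: uAGGUAGUuuccuguuguuggg
mmu-miR-615-5p: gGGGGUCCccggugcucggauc
mmu-miR-615-3p: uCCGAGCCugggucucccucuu
The miR-196a form is the same from Mir196a-1 in the Hoxb cluster and Mir196a-2 in the Hoxc cluster. The miR-10 forms, from the Hoxb and Hoxd clusters, share the seed ACCCUGU, and the miR-196 forms, from the Hoxa, Hoxb and Hoxc clusters, share AGGUAGU. The arrays measured 4 of these genes with a probe set of their own, and a probe set to a gene does not separate precursor from mature form. Mir10b read from 1.55 to 2.02 in KO and from 1.78 to 2.0 in WT, and Mir196a-2 from 2.89 to 3.16 in KO and from 2.86 to 3.38 in WT, both below the array median throughout. Mir196a-1 read from 4.72 to 5.01 in KO and from 4.59 to 5.08 in WT. None of these 3 passed the test, with log2 differences of -0.077, -0.019 and 0.017.

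Mir615, which lies in the Hoxc5 gene at chr15:103014926-103014947 (GRCm38.p6) for its 5p form, was the one cluster neighbour whose groups did not overlap, among 26 measured of 39 listed, against 0.987% of all genes. It read 4.12, 4.66, 4.16, 4.21 and 4.15 on the KO arrays and 3.99, 4.01, 3.56, 4.06 and 3.66 on the WT arrays. The lowest KO array lay just above the highest WT array. The difference was 0.40 (SE 0.13), with an exact permutation p of 0.00794, limma p of 0.0077 and adjusted p of 0.821, and it was 0.30 without KO array 2. Its host Hoxc5 had a difference of -0.052, and signal from overlapping transcripts cannot be told apart here, since no source used here states the strand of the probe sets. Among all 26 neighbours 15 had the higher mean in KO, with a median difference of 0.019, and Calcoco1, Smug1 and Nfe2l1 had differences of 0.12, 0.10 and 0.078. None had an adjusted p under 0.05.

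Partners and regulators of Hox genes were taken from lists. Of 10 TALE homeodomain partners and their binding protein, 9 were measured, 3 with the higher and 6 with the lower mean in KO, with a median difference of -0.091. Meis1 read 6.82, 6.66, 6.47, 6.63 and 6.59 on the KO arrays and 7.08, 7.03, 6.76, 6.75 and 6.76 on the WT arrays. KO array 1 alone reached into the WT range, and the difference was -0.24 (SE 0.095), with an exact permutation p of 0.0317 and an adjusted limma p of 0.821. Pbxip1, which binds Pbx proteins, differed by 0.24, and the partners Pbx2 and Pknox1 by -0.18 each, none past the threshold.

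Of 26 regulators of Hox expression, which include Polycomb and Trithorax proteins, 26 were measured, 11 with the higher and 15 with the lower mean in KO, with a median of -0.042. The smallest p belonged to Cbx7 and Cbx2, chromodomain subunits of Polycomb complexes, with differences of -0.21 and 0.17, Ctcf, which insulates Hox domains, with -0.16, and Eed, a subunit of the complex that methylates histone H3, with 0.13. In the list of limb and tail genes 13 of 18 had the higher mean in KO, with a median of 0.094, and Isl1, Shox2, Sall4 and Grem1 differed by 0.24, -0.17, 0.15 and 0.23. In a list of skin and axis transcription factors 5 of 17 had the higher mean, with a median of -0.11, and Twist2, a dermal factor, differed by -0.33, Tbx22 by 0.18, Pax3 by -0.23 and Meox2 by -0.38. No gene of these lists had an adjusted p under 0.05 by limma.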

How the data were processed

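The values are those the authors deposited, 1 per probe set and array, and their range (0.92 to 13.4) is that of log2 values. The authors' background correction, probe summary and normalization are not given in the sources used here. Arrays brought to equal levels cannot show a change in RNA per cell. Of 41345 probe sets, 23521 carried 1 gene symbol in the platform annotation, 1814 several and 16010 none, and only the first were used. No arrays held identical values.

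Differences, KO minus WT, were fitted for all 22180 genes by limma 3.58.1 (lmFit, eBayes; R 4.3.3), with Benjamini-Hochberg adjustment over all genes and a threshold of 0.05. Single genes were also put to an exact permutation test, two-sided, over every split of 10 arrays into 5 and 5. Summaries and figures used Python 3.11.15, pandas 2.3.3, numpy 2.4.6 and matplotlib 3.10.9. The scripts were tested on simulated data. The members and gene lists were chosen with earlier results of these data known. Genes named in full were the 8 Hox genes with the smallest p and the 6 with the largest within-genotype SD among those above the median on every array. From each other list up to 4 genes with the smallest p were named, with Zbtb4, Tbx5, Tbx4, Pitx1, Meis1, Meis2 and Hotair whatever their values (1 more is not reported here), and the 8 genes most like the posterior Hox genes. The block of Hoxa2 to Hoxa7, Hoxb2 and the genes most like the block were chosen after their values were seen. The alternatives were other scalings, a filter on dim genes, the mean of probe sets, other moderation and weights, the replicate number as a block, Y-linked genes as a covariate and leaving out each array.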

Additional observations from a re-analysis of the deposited data

Results flagged for a closer look

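Some of the genes examined were chosen by their values, so a chance rate of about 1 in 20 does not apply to this set. Within a genotype, 11 of 150 groups of 5 arrays held 1 array far from the other 4. Among Hox genes these were Hoxd13 on KO array 4, at 7.18 against 5.47 to 5.75 on the other KO arrays, Hoxd3 on KO array 3, at 4.15 against 3.77 to 3.82, Hoxd8 on KO array 3, at 6.08 against 5.26 to 5.44, Hoxd8 on WT array 2, at 6.27 against 5.54 to 5.69 on the other WT arrays, and Hoxd10 on WT array 1, at 4.93 against 5.22 to 5.29. All of these Hox genes belong to the Hoxd cluster.

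Among the other genes named, Tbx5 read 6.0 on KO array 4 against 4.72 to 4.85 on the other KO arrays, and Vmn2r108 read 3.13 there against 2.07 to 2.22. Mir615 read 4.66 on KO array 2 against 4.12 to 4.21, and Nfe2l1 read 8.24 there against 8.46 to 8.53. Ctcf read 7.42 on WT array 5 against 7.80 to 7.84 on the other WT arrays, and Tbx22 read 3.09 on WT array 3 against 2.83 to 2.87.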

How the results depend on the processing

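Under 8 alternatives and with each of 10 arrays left out, 0 Hox genes had an adjusted p under 0.05. Over all genes the count of calls was 0 throughout, except for 1 gene, Thg1l, without WT array 5 (adjusted limma p 0.0294). That left a range of 0 to 1 when arrays were left out. An unadjusted p under 0.05 was found for 1326 genes in the main fit and for 1078 to 1734 when arrays were left out. It was 800 of 13308 genes with dim genes left out. The count of Hox genes with an unadjusted p under 0.05 ranged from 1 to 4 when arrays were left out. It was 3 without KO array 1, 4 without KO array 3 and 4 without WT array 4. In these fits 1734, 1334 and 1231 of all 22180 genes passed that threshold. Hoxb1 was among the Hox genes in all 18 alternatives, with differences between 0.23 and 0.32 when arrays were left out. A higher mean in KO was found for 17 to 23 Hox genes, and in the main fit for 20 of 36, against 50.7% of all genes. With the replicate number as a block the count at an unadjusted p under 0.05 was 2 (Hoxb1 and Hoxd12), against 1295 of 22180 genes. No call changed. Same-numbered arrays correlated with r of 0.17, -0.045, -0.0041, -0.013 and 0.059, and the main fit did not pair the samples by number. The Y-linked genes did match by number, high on arrays 1 and 3 of both genotypes and low on the others. Whether the numbers pair the samples is not known from the labels.

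Of 40 single-gene differences, 32 kept their sign in all alternatives. Leaving out 1 array moved 25 of the 40 by over 1.5 times or turned them, among them 10 of 14 Hox genes. With arrays centred on their median they were -0.012 for Hoxa5, -0.013 for Hoxa6, -0.0097 for Hoxa4 and -0.00188 for Hotair. With array weights they were -0.025 for Hoxa5, -0.027 for Hoxa6 and -0.00256 for Hotair, and with quantile normalization -0.0029 for Hotair. When arrays were left out, the range was -0.11 to 0.12 for Hoxa5, -0.11 to 0.13 for Hoxa6, -0.084 to 0.14 for Hoxa4, -0.071 to 0.12 for Hoxa3, -0.089 to 0.37 for Hoxd13, -0.14 to 0.049 for Meis2, -0.024 to 0.10 for Pitx1 and -0.052 to 0.053 for Hotair. The causes were not tested. The median r among Hoxd10, Hoxd11 and Hoxd13, an alternative chosen after seeing the data, ranged from 0.069 without KO array 4 to 0.73. The values carry no measure of background, so how far dim Hox genes such as Hoxb1 stand above it is not known.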
